A study of Mus musculus with 31 samples.

Results

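The genes described here were 7 textbook mRNA targets of the miR-17 family of microRNAs, Bcl2l11, E2f1, Zbtb4, Rbl1, Rbl2, Vldlr and Stat3, measured by RNA-seq in mouse kidney. They were taken by symbol from the 23509 genes of the count tables, and all 7 were among the 15185 genes that passed the filter on low counts. Kidneys came from 12 Pcy/CD1 mice given PBS, 14 Pcy/CD1 mice given RGLS4326 and 5 untreated wild-type CD1 mice (WT/CD1) of matched age. Pcy/CD1 mice carry the germline pcy mutation and slowly form kidney cysts, so both treatment groups share the disease allele and differ in the injection. RGLS4326 is a short, chemically modified oligonucleotide complementary to the miR-17 seed. It was injected under the skin at 25 mg/kg once every 4 weeks for 25 weeks, from 5 to 30 weeks of age, and the kidneys were taken at 30 weeks. The study describes fewer sequenced Pcy/CD1 and wild-type mice than the labels list, and all labelled mice were used. PBS dosing is given as weekly in the labels of the PBS-treated mice and as monthly in the treatment protocol, and wild-type mice received no injection, so disease and injection cannot be told apart between PBS and wild type. The study describes the mice of all groups as male, the wild-type mice in its methods and the Pcy/CD1 mice in a figure legend.

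A microRNA directs the silencing complex to an mRNA whose 3′UTR pairs with its seed, the bases near its 5′ end, and the mRNA is then translated less or degraded sooner. Blocking the microRNA is expected to raise its targets, and a transcript can also change through transcription. The miR-17 family comes from several clusters that are active in growing tissue and tumours, and the genes named above are among its best known targets. They act in different processes. E2f1 drives entry into S phase, Rbl1 and Rbl2 (p107 and p130) are pocket proteins that bind E2F factors and hold back their targets, Bcl2l11 (Bim) starts apoptosis, Stat3 carries cytokine signals to the nucleus, Vldlr is a lipoprotein and reelin receptor, and Zbtb4 is a zinc finger repressor that binds methylated DNA.

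The mature microRNAs are shown because their seed, bases 2 to 8 in capitals, fixes which sites were searched for. All sequences are from RefSeq on GRCm38.p6, and the 6 family members shared the seed AAAGUGC.
mmu-miR-17-5p: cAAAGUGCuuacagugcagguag
mmu-miR-20a-5p: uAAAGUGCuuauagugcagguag
mmu-miR-93-5p: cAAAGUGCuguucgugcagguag
mmu-miR-106b-5p: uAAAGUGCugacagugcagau
mmu-miR-20b-5p: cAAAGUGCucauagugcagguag
mmu-miR-106a-5p: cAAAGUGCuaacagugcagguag
miR-17 and miR-20a lie on chromosome 14, miR-93 and miR-106b on chromosome 5, and miR-20b and miR-106a on chromosome X. Counted over the whole length, seed included, they had from 18 (miR-106b) to 22 (miR-106a) of the 23 bases of miR-17 at the same positions. A further microRNA, miR-6383, had the same seed but only 8 bases, seed included, in common with miR-17.

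Every target held at least 1 match to this seed in its longest annotated 3′UTR (GENCODE vM21, GRCm38). The search used the sense strand for GCACTTT (7mer-m8), GCACTTTA (8mer, which contains the 7mer-m8 and is counted once) and CACTTT (6mer, counted where no longer match held it). The best match of each gene is printed, with the paired bases in capitals, together with the second match of Rbl2.
Bcl2l11 8mer: ccccgactggaGCACTTTActgtctcagcc
E2f1 7mer-m8: gggctctaactGCACTTTtggtgtccttg
Zbtb4 8mer: tcttgtttctgGCACTTTAgaaaaactgca
Rbl1 7mer-m8: gcctgatcaaaGCACTTTtggattgttct
Rbl2 8mer: tgtaattggtgGCACTTTAtggctgtaaga
Rbl2 7mer-m8: tatttatgatgGCACTTTctatggtgtga
Vldlr 7mer-m8: tggccaaatatGCACTTTccctagaaagc
Stat3 7mer-m8: gggcaatctggGCACTTTttaaaatagag
The paired bases of the Bcl2l11 site lie at chr2:128160452-128160459 on the plus strand, in exon 4 of 4. Those of E2f1 lie at chr2:154560212-154560218 on the minus strand, in exon 7 of 7. The Zbtb4 8mer lies at chr11:69781271-69781278 on the plus strand, in exon 4 of 4. The Rbl1 site is at chr2:157147477-157147483 on the minus strand, in exon 22 of 22, and starts 23 bases after the stop codon. The Rbl2 sites are at chr8:91123151-91123158 and chr8:91123212-91123218 on the plus strand, both in exon 22 of 22. The Vldlr site is at chr19:27249407-27249413 on the plus strand, in exon 19 of 19, and the Stat3 site at chr11:100888542-100888548 on the minus strand, in exon 24 of 24.

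The targets were richer in such matches than most genes. Zbtb4 held 3 matches of 7 or 8 bases, Bcl2l11, E2f1, Rbl2, Vldlr and Stat3 held 2 each, and Rbl1 held 1. Thus 6 of 7 held 2 or more, compared with 2.12% of the 13822 tested genes that had an annotated 3′UTR, and an 8mer was found in 3 of 7 compared with 4.28%. At least 1 match was present in 13.985% of those genes. Because the genes are known as targets, this is a description of how they were chosen. Their 3′UTRs ran from 1281 bases in E2f1 to 5091 bases in Vldlr, whereas the median over the tested genes was 1145 bases, and longer 3′UTRs hold more matches.

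**Figure D1:**
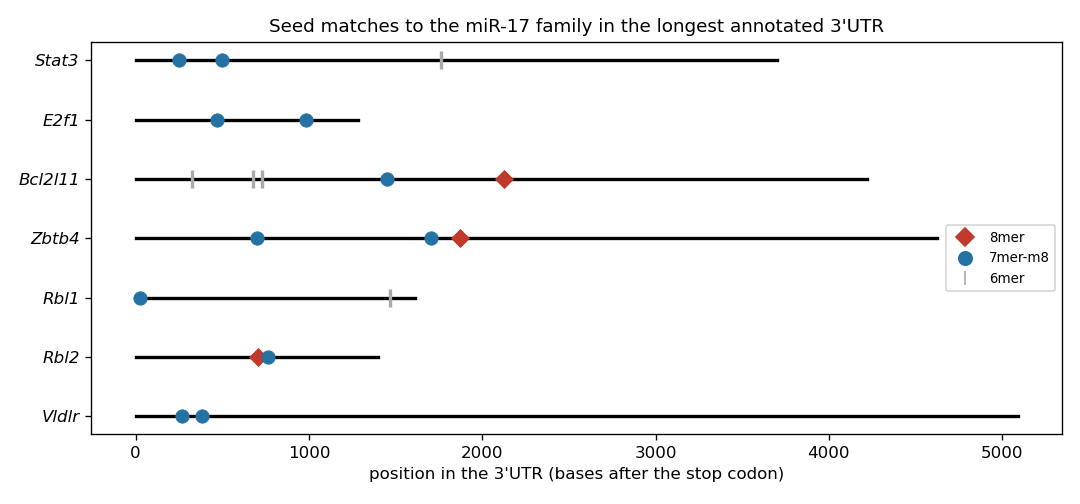
Matches to the miR-17 family seed along the longest annotated 3′UTR of each target, in bases after the stop codon. Black lines are 3′UTRs, red diamonds 8mers, blue circles 7mer-m8 matches and grey bars 6mers; both Vldlr matches lie in the first 400 bases of a 3′UTR of 5091 bases, and the pair in Rbl2 starts at bases 705 and 766.

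The count tables gave 14892524 to 27459962 counts on genes per mouse, with medians of 20562148 in PBS, 19898000 in RGLS4326 and 19961466 in wild type. E2f1 had the fewest counts of the 7 targets, 31 to 132 per mouse, and its values carry the largest counting error. Values are CPM, gene counts relative to library size scaled with TMM factors, and a gene passed the test at an adjusted p under 0.05 (edgeR's quasi-likelihood test, Benjamini-Hochberg adjustment over 15185 genes). All markers in the lists for proximal tubule, distal nephron, podocytes and endothelium were detected, as the kidney label requires. RGLS4326-treated mouse 9 stood apart from its group. Its summed proximal tubule markers were 23339 CPM, inside the wild-type range of 22779 to 25632 CPM, its macrophage markers summed to 211 CPM compared with 558 to 988 CPM in PBS, and Lcn2 read 2.76 CPM. Results of RGLS4326 for the 7 targets and their relations to markers are therefore also given without this mouse. Values of other gene lists, of classes by number of seed matches and of pairs of genes include it. For RGLS4326 against PBS, 1228 of all genes passed without it, in place of 2402.

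Levels were compared between the genes per kilobase of exon. In wild-type kidney, Rbl2 at 15.5 ± 1.17 and Vldlr at 15.2 ± 0.391 CPM per kilobase (SD, n = 5) stood highest and lay within their spread of each other. Zbtb4 at 8.60 ± 0.265 and Stat3 at 8.58 ± 0.446 CPM per kilobase followed and did not differ beyond theirs. Bcl2l11 at 1.85 ± 0.151 and Rbl1 at 1.62 ± 0.205 CPM per kilobase were lower, with overlapping SDs, and E2f1 was lowest at 0.792 ± 0.149. In PBS-treated Pcy/CD1 kidney the order changed at the top. Stat3 led at 18.01 ± 3.02 CPM per kilobase (SD, n = 12), ahead of Vldlr at 10.9 ± 1.41, Rbl2 at 10.1 ± 1.25 and Zbtb4 at 8.90 ± 0.876. The last 3 of these had SDs that met those of their neighbours. E2f1 was again lowest, at 1.36 ± 0.295.

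In cystic kidney the targets moved in both directions. Stat3, E2f1 and Bcl2l11 were higher in PBS-treated Pcy/CD1 than in wild-type kidney, Rbl2 and Vldlr were lower, and Rbl1 and Zbtb4 did not pass the test. That made 5 of 7, in a comparison where 74.3% of all genes tested passed (37.7% higher and 36.6% lower), so the share was close to the background. With an absolute log2 fold change over 0.5 required as well, 3 of 7 passed (Stat3, E2f1 and Rbl2), as did 42.4% of all genes. Scaled by library totals alone, 5 targets were higher and 1 lower, and the split over all genes was 9513 higher and 2373 lower in place of 5721 and 5560. The median absolute log2 fold change was 0.47 over the targets and 0.42 over all genes. With RGLS4326, 0 of 7 targets passed the test against PBS, where 15.8% of all genes did, and 2.15% with the threshold on size. At an unadjusted p under 0.05 edgeR had 2 of 7, Vldlr and Stat3, and 36.8% of all genes. DESeq2 had the same number of targets unadjusted and 0 after adjustment, where 37.7% and 21.1% of all genes passed. Scaled by the 6 housekeeping genes 0 of 7 passed. Scaled by library totals alone, 4 of 7 passed as lower, with a split over all genes of 551 higher and 4132 lower in place of 1390 and 1012. Without mouse 9 edgeR had 1 of 7 unadjusted and 0 adjusted, beside 32% and 8.09% of all genes. The fitted differences were negative for 5 targets and positive for 2, with a median log2 fold change of −0.06 compared with −0.0043 over all genes. The intervals bound what these kidneys allow. The highest upper limit of a 95% interval for RGLS4326 against PBS was 0.27, for Vldlr. In simulated counts of this comparison the same test recovered 57 of 100 genes changed 1.3-fold and 93 of 100 changed 2-fold. The simulation changed far fewer genes than the 2402 that passed in the real comparison, and none by less than 1.3-fold. It therefore does not give the recovery of smaller differences, such as those fitted for the targets.

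**Figure D2:**
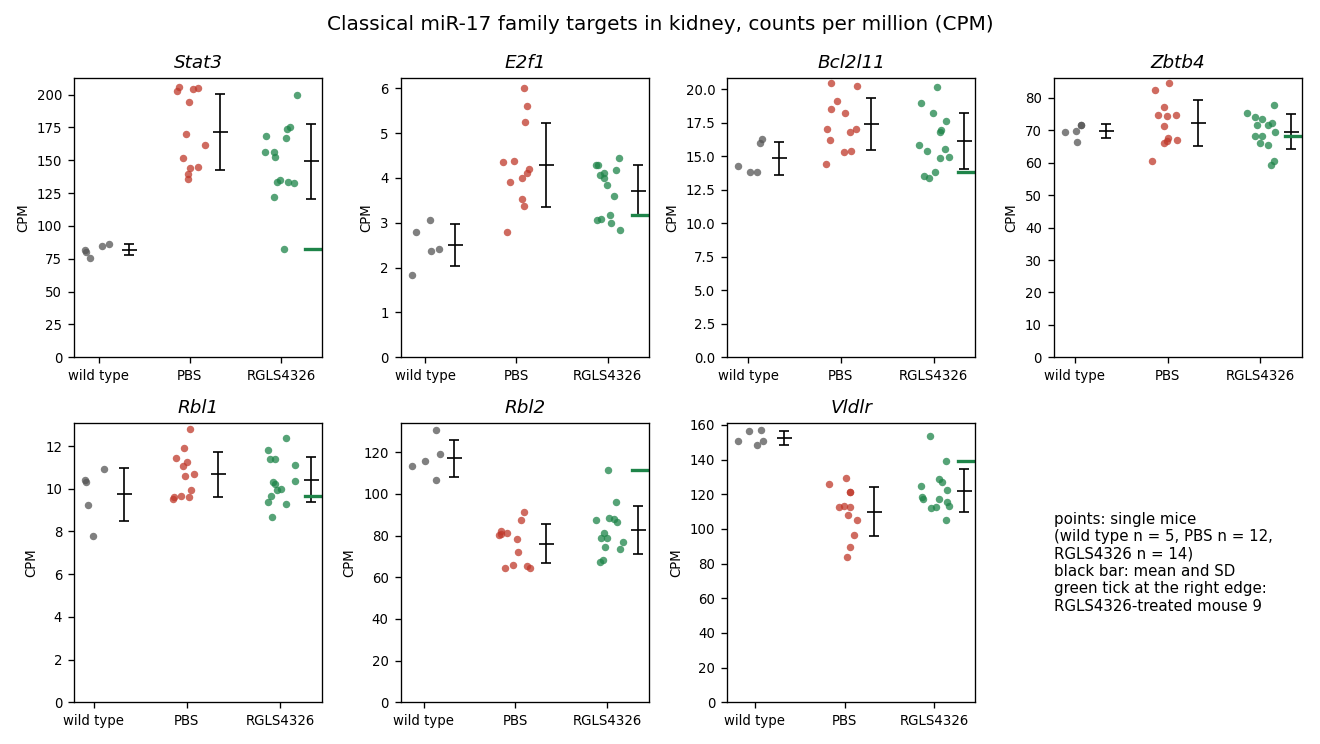
CPM of the 7 targets in every mouse of the 3 groups, with mean and SD in black and RGLS4326-treated mouse 9 marked by a green tick at the right edge. Stat3 lies higher and Rbl2 and Vldlr lie lower in all 12 PBS-treated mice than in all 5 wild-type mice. Such separate groups were found for 42.2% of all genes. PBS and RGLS4326 overlap for each target, as they did for all 15185 genes tested.

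Stat3, the transcription factor activated by the interleukin 6 family of cytokines, had the widest difference between PBS and wild type of the 7. It read 81.6, 75.7, 86.4, 85.1 and 80.1 CPM in wild-type mice 1 to 5. In PBS-treated mice it ran from 135 to 206 CPM with a median of 166 CPM, above every wild-type mouse. In RGLS4326-treated mice it ran from 82.3 to 199 CPM with a median of 154 CPM, and 6 of 14 read below the lowest PBS-treated mouse. The lowest was mouse 9. The means were 81.8 ± 4.25 (SD, n = 5), 172 ± 28.8 (SD, n = 12) and 149 ± 28.8 CPM (SD, n = 14). The log2 fold change of PBS against wild type was 1.07 (SE 0.14, adjusted p = 9.8e-08), and it was 1.12, 0.94 and 1.19 within the 3 index series, the runs of library numbers in the deposited names. Groups that do not overlap, as here, were found for 42.2% of all genes in this comparison. For RGLS4326 against PBS it was −0.20 (SE 0.096, 95% interval −0.40 to −0.0063, p = 0.0435 before and 0.124 after adjustment by edgeR). It was −0.07, −0.24 and −0.27 within the index series and −0.15 without mouse 9 (adjusted p = 0.186 from the same test).

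Genes around Stat3 were listed as well. Of 20 listed ligands, receptors, kinases and inhibitors of the interleukin 6 pathway, 12 were higher and 6 lower in PBS than in wild type, where 74.3% of all genes passed (15 and 1 by library totals alone). Osmr, the oncostatin M receptor, rose by a log2 fold change of 2.26 (SE 0.25), while Lifr, the receptor for leukaemia inhibitory factor, had one of −0.98 (SE 0.12). With RGLS4326, 1 of the 20 passed (background 15.8%), the kinase gene Jak1 at 0.13 (SE 0.045, adjusted p = 0.0435 by edgeR), and Socs1, a feedback inhibitor, read −0.49 (SE 0.18, adjusted p = 0.0573).

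E2f1 was the other target that was clearly higher in disease. Wild-type mice 1 to 5 read 1.83, 2.38, 2.43, 2.79 and 3.07 CPM. PBS-treated mice ran from 2.79 to 6.01 CPM with a median of 4.15 CPM, and 11 of 12 lay above the highest wild-type mouse. RGLS4326-treated mice ran from 2.83 to 4.45 CPM with a median of 3.93 CPM, all inside the PBS range. PBS exceeded wild type by a log2 fold change of 0.78 (SE 0.15, adjusted p = 4.2e-05), with 0.94, 0.74 and 0.58 within the index series. RGLS4326 differed from PBS by −0.21 (SE 0.11, 95% interval −0.42 to 0.0062, adjusted p = 0.146 by edgeR), with 0.05, −0.36 and −0.29 within the index series. Of 15 listed cell division genes, 14 were higher in PBS than in wild type (37.7% of all genes). With RGLS4326, 1 of the 15 passed as lower (6.66% of all genes lower), and 2 did so with housekeeping scaling and 8 by library totals alone. The 1 in the main fit was Ccnb1 (log2 fold change −0.53, adjusted p = 0.0447 by edgeR), named after its value was seen. The part of dividing cells in the E2f1 level was not tested.

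Rbl1 and Rbl2, the E2F-binding pocket proteins, did not move alike. Rbl2 read 131, 119, 113, 116 and 107 CPM in wild-type mice 1 to 5. In PBS-treated mice it ran from 64.2 to 91.4 CPM with a median of 79.3 CPM, below every wild-type mouse. In RGLS4326-treated mice it ran from 67.3 to 112 CPM with a median of 80.1 CPM, and the highest was mouse 9. Rbl2 fell by 0.62 on the log2 scale in PBS against wild type (SE 0.090, adjusted p = 5.6e-07), and by 0.70, 0.57 and 0.49 within the index series. RGLS4326 against PBS gave 0.12 (SE 0.069, 95% interval −0.02 to 0.26, adjusted p = 0.200 by edgeR), positive in each index series, and 0.08 without mouse 9. Rbl1 read 10.9, 10.4, 7.81, 9.26 and 10.3 CPM in wild-type mice. It ran from 9.54 to 12.8 CPM in PBS (median 10.6 CPM) and from 8.69 to 12.4 CPM with RGLS4326 (median 10.3 CPM), and the 3 groups overlapped. Its log2 fold change was 0.13 for PBS against wild type (SE 0.085, adjusted p = 0.153 by edgeR) and −0.03 for RGLS4326 against PBS (95% interval −0.16 to 0.09, adjusted p = 0.714). Without wild-type mouse 1 the first of these passed, at 0.20 (adjusted p = 0.0467).

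Of 26 other genes of the E2F and pocket protein network, 11 were higher and 6 lower in PBS than in wild type, a share below the 74.3% of all genes that passed (20 higher and 1 lower by library totals alone). Cdkn1a, the p21 inhibitor of cyclin-dependent kinases, had a log2 fold change of 2.49 (SE 0.33) and Cdk2, the S-phase kinase, of 0.62 (SE 0.078). With RGLS4326, 3 of the 26 were higher than with PBS and 4 were lower, where 15.8% of all genes passed (1 and 8 by library totals alone). Those higher were Rb1 at 0.25 (SE 0.067), the retinoblastoma pocket protein, Lin52 at 0.26 (SE 0.075), a subunit of the DREAM complex, and E2f5 at 0.17 (SE 0.046), a repressive E2F. Those lower were E2f2, an activating E2F, at −0.35 (SE 0.082), Cdk2 at −0.21 (SE 0.055), Cdk4 at −0.21 (SE 0.065) and Cdkn2a at −1.09 (SE 0.34), which encodes the p16 and p19 tumour suppressors. All of these except E2f2 and Cdk2 were named after their values were seen.

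Bcl2l11, the apoptosis starter Bim, differed little. It read 13.8, 13.8, 16.3, 14.3 and 15.96 CPM in wild-type mice 1 to 5. It ran from 14.4 to 20.5 CPM in PBS-treated mice (median 17.02 CPM) and from 13.4 to 20.2 CPM in RGLS4326-treated mice (median 15.7 CPM), and all groups overlapped, with 8 of 12 PBS-treated mice above the highest wild-type mouse. PBS exceeded wild type by a log2 fold change of 0.23 (SE 0.090, adjusted p = 0.0226 by edgeR). This call was lost without wild-type mouse 2 (0.21, adjusted p = 0.0576) or mouse 4 (0.22, adjusted p = 0.0506). Within the index series, where 4 PBS-treated mice met 2, 2 and 1 wild-type mice, the values were 0.27, 0.14 and 0.26 and did not pass. RGLS4326 differed from PBS by −0.11 (95% interval −0.24 to 0.03, adjusted p = 0.227), with 0.07, −0.16 and −0.21 within the index series. Of 16 other BCL2 family genes tested, 12 were higher and 3 lower in PBS than in wild type (background 74.3%), among them the survival gene Mcl1 at 0.65 (SE 0.087) and Bcl2a1b at 3.61 (SE 0.48), whose near-identical copies make the count per copy uncertain. With RGLS4326, 2 of the 16 were lower than with PBS (background 15.8% in either direction; 5 with housekeeping scaling and 7 by library totals alone), the pro-apoptotic genes Bok at −0.42 (SE 0.11) and Bmf at −0.58 (SE 0.16), and 0 were higher.

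Vldlr, the receptor for lipoproteins and reelin, came nearest to passing with RGLS4326. It read 151, 156, 151, 157 and 148 CPM in wild-type mice 1 to 5. PBS-treated mice ran from 84.1 to 130 CPM with a median of 113 CPM, all below wild type. RGLS4326-treated mice ran from 105 to 154 CPM with a median of 118 CPM, and 11 of 14 lay above the PBS median. Against wild type, PBS fell by 0.47 on the log2 scale (SE 0.079, adjusted p = 4.8e-06), and by 0.46, 0.50 and 0.40 within the index series. RGLS4326 exceeded PBS by 0.15 (SE 0.060, 95% interval 0.03 to 0.27, p = 0.0187 before and 0.0767 after adjustment by edgeR). The value was 0.06, 0.28 and 0.08 within the index series and 0.13 without mouse 9. It passed without PBS mouse 4 (0.17, adjusted p = 0.0356), PBS mouse 12 (0.17, adjusted p = 0.0463) or RGLS4326 mouse 2 (0.16, adjusted p = 0.0433). Of 14 tested genes of the LDL receptor family and its adaptors, 4 were higher and 7 lower in PBS than in wild type (background 74.3%; 7 and 5 by library totals alone). The adaptor Dab2 read −0.78 (SE 0.090) and the reelin adaptor Dab1 2.10 (SE 0.28). For RGLS4326 against PBS, which shares the PBS-treated mice with that comparison, Dab2 passed at 0.25 (SE 0.069) and Dab1 at −0.61 (SE 0.18), and the other 12 did not (background 15.8%).

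Zbtb4, the repressor with the most matches of 7 or 8 bases, did not pass the test in any of the 3 comparisons. It read 71.5, 71.7, 69.9, 66.4 and 69.5 CPM in wild-type mice 1 to 5, ran from 60.6 to 84.7 CPM in PBS (median 72.7 CPM) and from 59.1 to 77.9 CPM with RGLS4326 (median 70.5 CPM), and all groups overlapped. The log2 fold change was 0.05 for PBS against wild type (SE 0.063, adjusted p = 0.478 by edgeR). For RGLS4326 against PBS it was −0.06 (SE 0.047, 95% interval −0.15 to 0.04, adjusted p = 0.387), the narrowest interval of the 7 targets. Of 11 other methyl-DNA readers and writers, 4 were higher and 3 lower in PBS than in wild type (background 74.3%, 7 and 2 by library totals alone), and Uhrf1, which maintains DNA methylation, read 2.02 (SE 0.29). With RGLS4326, 2 of the 11 passed, 1 higher and 1 lower (background 15.8%). With housekeeping scaling 0 were higher and 1 lower, and by library totals alone 0 and 5. In the main fit Zbtb33, the related repressor Kaiso, was higher at 0.35 (SE 0.10) and Uhrf1 was lower at −0.56 (SE 0.18).

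**Figure D3:**
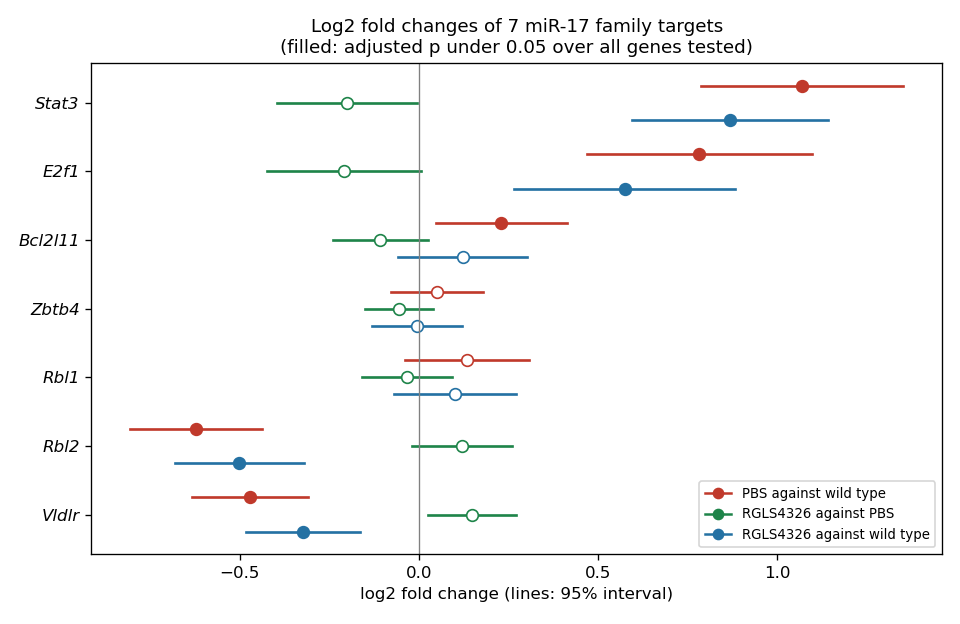
Log2 fold changes of the 7 targets with 95% intervals in the 3 comparisons, filled where the adjusted p was under 0.05. The RGLS4326 against PBS points are all open and lie between −0.21 and 0.15, whereas Stat3 and E2f1 lie right of 0 and Rbl2 and Vldlr left of 0 in both comparisons with wild type.

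RGLS4326-treated kidney was also compared with wild type. The test was passed by 4 of 7 targets, and by 64.9% of all genes (32.5% higher and 32.4% lower). Scaled by library totals alone, 5 targets were higher and 1 lower, and 8448 genes were higher and 2079 lower in all, in place of 4938 and 4923. With the threshold on size the test was passed by 3 of 7 and by 31.5% of all genes. E2f1 at 0.57 (SE 0.15) and Stat3 at 0.87 (SE 0.13) were higher, Rbl2 at −0.50 (SE 0.089) and Vldlr at −0.32 (SE 0.078) were lower, and Bcl2l11 at 0.12, Rbl1 at 0.10 and Zbtb4 at −0.0055 did not pass. The same number passed without mouse 9. For Stat3, Rbl2 and Vldlr, 13 of 14 RGLS4326-treated mice lay outside the wild-type range, whereas mouse 9 at 82.3 CPM for Stat3 and 112 CPM for Rbl2 lay inside it. For Vldlr mouse 9 read 139 CPM, below wild type, and a different RGLS4326-treated mouse read 154 CPM. Within index series 1, 2 and 3 alone, with 2, 2 and 1 wild-type mice, 5, 0 and 1 of 7 passed, where 47.3%, 2.54% and 18.3% of all genes did. Series 2 held mouse 9, and without it 2 of 7 (Rbl2 and Stat3) and 30.9% of all genes passed. In series 3 the lone wild-type mouse was assumed to vary like the other mice. PBS and wild-type mice are shared between these comparisons, so the 3 sets of values are not independent.

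The fitted treatment differences of Rbl2, Vldlr and Stat3 had 1 sign in the 3 index series, and those of E2f1, Bcl2l11, Zbtb4 and Rbl1 did not. Whether the series differ was not tested. Within single series, which held 4 or 5 mice of each Pcy/CD1 group, 0 of 7 targets and 0 of all 15185 genes passed in edgeR's test, so these fits say nothing about the targets in particular. Unadjusted p was under 0.05 for 0, 1 and 1 of the 7, and for 1.82%, 19.8% and 19.9% of all genes. When the series entered the model as a term, 0 of 7 targets passed and 2 of 7 had an unadjusted p under 0.05, beside 14.7% and 36.5% of all genes. Without mouse 9 the log2 fold change of RGLS4326 against PBS was −0.09 for Bcl2l11, −0.19 for E2f1, −0.05 for Zbtb4 and −0.02 for Rbl1, beside the values given above for Stat3, Rbl2 and Vldlr.

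**Figure D4:**
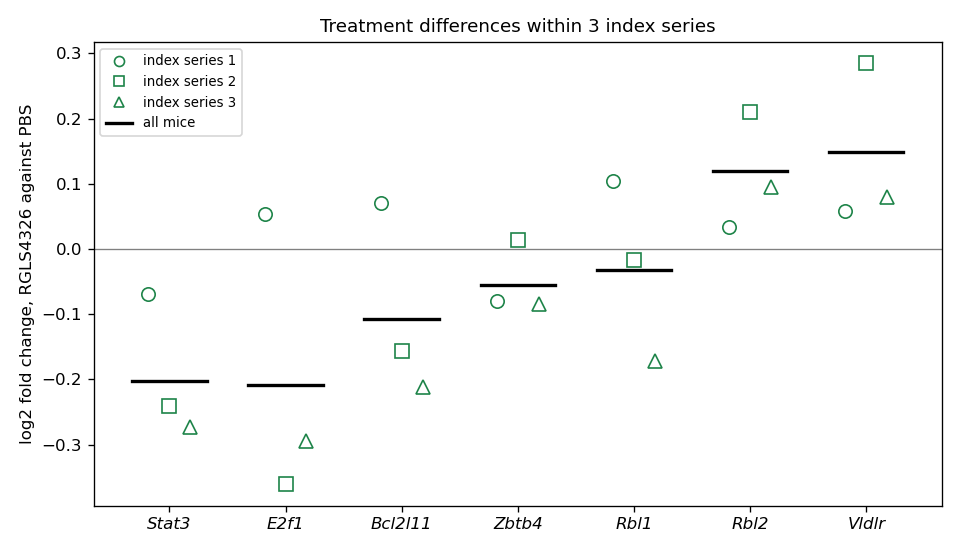
Log2 fold change of RGLS4326 against PBS for each target, in each of the 3 index series (open symbols) and over all mice (black bars). Rbl2 and Vldlr lie above 0 and Stat3 below 0 in each series, whereas E2f1 and Bcl2l11 are positive in series 1 and negative in series 2 and 3.

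The transcripts that host the microRNAs were also counted, although spliced host RNA is not a measure of mature microRNA. Mir17hg, the host of miR-17 and miR-20a, ran from 2.95 to 4.57 CPM in wild type, 3.62 to 5.82 CPM in PBS and 4.09 to 6.59 CPM with RGLS4326. Its log2 fold change was 0.11 for PBS against wild type (adjusted p = 0.444 by edgeR) and 0.23 for RGLS4326 against PBS (SE 0.089, adjusted p = 0.0718), and 14 of 14 RGLS4326-treated mice lay above the PBS median. Mcm7, a replication helicase gene whose intron holds miR-93 and miR-106b, was higher in PBS than in wild type by 0.65 (SE 0.11) and lower with RGLS4326 than with PBS by a log2 fold change of −0.25 (SE 0.075, adjusted p = 0.0283).

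Other known targets of the family were listed for comparison. In PBS against wild type 9 of 15 were lower and 3 higher, where 36.6% and 37.7% of all genes were, and by library totals alone 6 were lower and 6 higher. The kinase gene Mapk9 read −0.47 (SE 0.052). With RGLS4326, 5 of 15 were higher than with PBS and 0 lower, where 9.15% of all genes were higher and 6.66% lower. Among those higher were the mitotic kinase gene Wee1 at 0.33 (SE 0.098), the ubiquitin ligase gene Itch at 0.21 (SE 0.071), the coactivator gene Ncoa3 at 0.17 (SE 0.052) and the BMP receptor gene Bmpr2 at 0.17 (SE 0.059), the last 3 named after their values were seen. Scaled by the 6 housekeeping genes, 2 of the 15 were higher and 0 lower, with a split over all genes of 471 higher and 1585 lower, and by library totals alone 1 was higher and 2 lower. The 6 housekeeping genes were themselves not constant with TMM factors. Of them, 2 were higher and 2 lower in PBS than in wild type, and 1 was higher with RGLS4326 than with PBS. With housekeeping scaling Itch, Ncoa3 and Bmpr2 no longer passed as higher, nor did E2f5, Jak1, Dab2, Zbtb33 and Cubn of the other lists, and by library totals alone Wee1, Itch, Ncoa3, Bmpr2, E2f5, Rb1, Jak1 and Zbtb33 did not pass. The median log2 fold change was 0.09 over these 15 genes and −0.06 over the 7 classical targets. Relative to the median of all genes, that of the 15 was 0.09 under each of the 3 scalings. Over all genes with a 3′UTR, the median for RGLS4326 against PBS was −0.01 with no match of 7 or 8 bases (11889 genes), 0.04 with 1 match (1640 genes) and 0.07 with 2 or more (293 genes). In that last class, which holds 6 of the 7 targets, 41 genes passed as higher and 11 as lower, compared with 20 and 17 under housekeeping scaling and 18 and 54 under library totals, while the class median stayed 0.07 above that of all genes under each. Of those 6, Bcl2l11, E2f1, Zbtb4 and Stat3 had negative fitted values, whereas Vldlr at 0.15 and Rbl2 at 0.12 lay above the class median. For PBS against wild type, the classes with 0, 1 and 2 or more matches had medians of 0.03, −0.12 and −0.24. Both comparisons share the PBS-treated mice, so the 2 gradients are not independent, and what lies behind them was not tested.

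Among mice of the same group, Stat3, Rbl2, Vldlr, E2f1 and Bcl2l11 had relations to markers of injury or division that passed. When centred on the index series, those of Bcl2l11 and E2f1 passed by only 1 of the 2 correlation measures. Each target was related to Lcn2, a marker of tubular injury, and to Mki67, a marker of dividing cells, within PBS and within RGLS4326, giving 28 relations, of which 10 passed (permutation test of Pearson's r on log2(CPM + 1) with 100000 resamples, two-sided, Benjamini-Hochberg adjusted over the 28). Spearman's rho passed for 13. These relations were not computed over all genes, so the counts do not set the targets apart from other genes. Stat3 rose with Lcn2 in PBS-treated mice (r = 0.90, permutation p = 0.00011, adjusted p = 0.00084, rho = 0.88, permutation p = 0.00034, n = 12) and in RGLS4326-treated mice (r = 0.92, permutation p = 5.0e-05, adjusted p = 0.0007, rho = 0.86, permutation p = 0.00023, n = 14). Leaving out the 2 mice farthest from the median of Lcn2, r was 0.87 and 0.82. Rbl2 fell as Lcn2 rose, with r = −0.91 in PBS (permutation p = 0.00012, adjusted p = 0.00084, rho = −0.82, permutation p = 0.0019) and r = −0.86 with RGLS4326 (permutation p = 5.0e-05, adjusted p = 0.0007, rho = −0.85, permutation p = 0.0003), and r was −0.87 and −0.85 without the 2 farthest mice.

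Vldlr followed Rbl2 in PBS, with r = −0.86 to Lcn2 (permutation p = 0.00032, adjusted p = 0.0018, rho = −0.85, permutation p = 0.00094, r = −0.80 without the 2 farthest mice). With RGLS4326 its r of −0.59 did not pass (adjusted permutation p = 0.0823), although rho was −0.76 (adjusted permutation p = 0.0082). It passed without mouse 9 (r = −0.60, adjusted permutation p = 0.0427) and with the injury list in place of Lcn2 (r = −0.70, adjusted permutation p = 0.0291). E2f1 rose with Mki67 (r = 0.82, permutation p = 0.0011, adjusted p = 0.0039, rho = 0.87, permutation p = 0.00033) and with Lcn2 (r = 0.81, permutation p = 0.0017, adjusted p = 0.0051, rho = 0.76, permutation p = 0.0057) in PBS, and r was 0.68 and 0.71 without the 2 farthest mice. Centred on the index series, r was 0.85 and 0.79 and passed, whereas rho was 0.52 and 0.65 and did not (adjusted permutation p = 0.146 and 0.0665). With RGLS4326 these were 0.43 and 0.30 and did not pass. The difference between the groups was not tested. Relations to Mki67 in RGLS4326-treated mice passed for a further set. Bcl2l11 rose with it (r = 0.62, permutation p = 0.013, adjusted p = 0.037, rho = 0.78, permutation p = 0.0017), and r was 0.71 without the 2 farthest mice, but centred on the index series r was 0.52 (adjusted permutation p = 0.112) and did not pass, whereas rho was 0.69 (adjusted permutation p = 0.0298) and passed. Rbl2 fell with it (r = −0.82, permutation p = 0.00055, adjusted p = 0.0024, rho = −0.74, permutation p = 0.0035), and r was −0.63 without the 2 farthest mice. Stat3 rose with it (r = 0.87, permutation p = 0.0006, adjusted p = 0.0024, rho = 0.65, permutation p = 0.015), and r was 0.66 without the 2 farthest mice. Zbtb4 and Rbl1 had no relation that passed, with r from −0.41 to 0.23.

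Centred on the index series, r to Lcn2 in PBS was 0.95 for Stat3, −0.96 for Rbl2 and −0.96 for Vldlr, and 11 of 28 relations passed. Single series held at most 5 mice of a group and gave no r of their own. Without mouse 9, r to Lcn2 with RGLS4326 was 0.83 for Stat3, −0.85 for Rbl2 and −0.60 for Vldlr, and 15 of 28 relations passed.

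**Figure D5:**
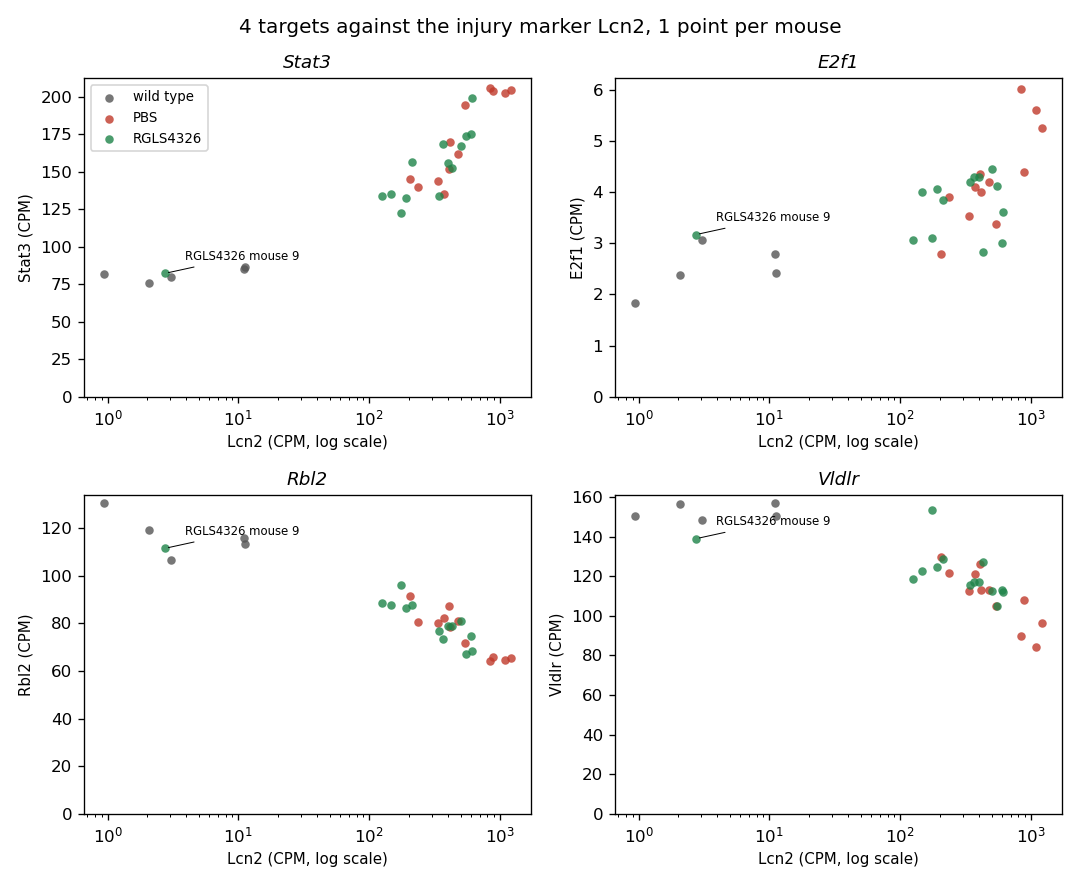
CPM of Stat3, E2f1, Rbl2 and Vldlr against Lcn2 (log axis), 1 point per mouse and coloured by group. Among PBS-treated mice Stat3 and E2f1 rise and Rbl2 and Vldlr fall with Lcn2, and RGLS4326-treated mouse 9, at 2.76 CPM of Lcn2, lies inside the wild-type range for Stat3 and Rbl2, just above it for E2f1 at 3.17 CPM and below it for Vldlr at 139 CPM.

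Cell type markers moved along with the same groups. The summed level of 10 proximal tubule markers was 22779 to 25632 CPM in wild type, 6849 to 13380 CPM in PBS and 9091 to 23339 CPM with RGLS4326, and all 10 were lower in PBS than in wild type (36.6% of all genes; 9 of 10 with housekeeping scaling or library totals). The summed level of 10 injury markers was 667 to 1367, 3624 to 9271 and 1217 to 7545 CPM in the same order, that of 9 macrophage markers 199 to 237, 558 to 988 and 211 to 1114 CPM, and that of 10 fibroblast markers 220 to 285, 642 to 1362 and 340 to 1410 CPM. Of these lists, 10 of 10, 9 of 9 and 8 of 10 genes were higher in PBS than in wild type (37.7% of all genes), and no marker in them was at 0 in every mouse. With RGLS4326, 2 of 10 proximal tubule markers (Cubn and Slc22a6, named after their values were seen) were higher than with PBS (9.15% of all genes) and 0 of the injury, macrophage and fibroblast markers passed (6.66% of all genes lower). All 9 lymphocyte markers were higher in PBS than in wild type, and 1 was lower with RGLS4326. Of 10 distal nephron markers, 2 were higher and 2 lower with RGLS4326, and 0 podocyte and endothelial markers passed. By library totals alone the markers lower with RGLS4326 were 2 of injury, 1 of macrophages, 2 of lymphocytes, 3 of the distal nephron and 1 of podocytes. With housekeeping scaling 2 injury, 2 lymphocyte and 2 distal nephron markers were lower, and 1 proximal tubule and 1 distal nephron marker were higher. In whole kidney, fewer cells of a type and less RNA per cell cannot be told apart, and the part of cell composition in the levels of Stat3, E2f1, Rbl2 and Vldlr was not tested.

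The targets differed in which genes they resembled. Over the 26 Pcy/CD1 mice, with group means removed, Rbl2 and Stat3 had r = −0.90 to each other, Rbl2 and Vldlr r = 0.85, and Vldlr and Stat3 r = −0.73, while Zbtb4 and Rbl1 had r of at most 0.45 in size to any other of the 7. These are descriptions, since all values come from the same libraries. The search covered 13783 other genes that averaged 1 CPM or more. The closest to Stat3 were Sbno2 (r = 0.98), Mthfd2 (r = 0.97) and Anxa3 (r = 0.96). For Rbl2 they were Nadk2 (r = 0.98), Fam210a (r = 0.97) and Oxct1 (r = 0.96), genes of mitochondrial proteins, and for Vldlr they were Ccser2 (r = 0.93), Vps13a (r = 0.93) and Snx25 (r = 0.93). For E2f1 they were Spc24 (r = 0.79) and Ncapd2 (r = 0.78), which act in chromosome segregation, and Aaas (r = 0.77). Bcl2l11 was nearest to Midn (r = 0.86), Plcd1 (r = 0.77) and Ctdsp2 (r = 0.77), Zbtb4 to Syne1 (r = 0.84), Rc3h1 (r = 0.83) and Vcl (r = 0.82), and Rbl1 to the cell cycle kinase gene Cdk6 (r = 0.73), Tmx4 (r = 0.73) and Golga1 (r = 0.73).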

How the data were processed

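Kidney RNA-seq of 31 mice was analysed. The authors trimmed the reads with Trim Galore, aligned them to GRCm38 by STAR, and HTSeq 0.6.1 counted unique alignments per gene. They deposited raw counts, without normalization, for 23509 genes. The strand setting and gene annotation of the counting are not given in the sources used here. HTSeq summary rows were left out of the library sizes. Reads outside genes were 10.4% to 12.5% and ambiguous reads 0.381% to 0.503% of unique reads.

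Groups and replicate numbers came from the labels. Genes passing filterByExpr were kept, scaled by TMM and fitted in edgeR 4.0.16 (R 4.3.3) with 1 coefficient per group over all 31 mice. SE was the size of the log2 fold change over the root of its F statistic. Relations used a pseudocount of 1 and 100000 resamples. Seed matches were searched in GENCODE vM21 3′UTRs. The model was tested on simulated data, in which 9 unchanged genes of 15185 were called. Alternatives used DESeq2 1.42.0, other scalings and filters, subsets of mice and the index series. Other steps ran in Python 3.11.15 (pandas 2.3.3, scipy 1.17.1, matplotlib 3.10.9, numpy 2.4.6).

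The 7 targets and the other gene lists were chosen with earlier results of these data known. The text names the 7 targets, per list the 2 lowest p-values in PBS against wild type and in RGLS4326 against PBS, both host transcripts, Lcn2, Mki67 and the 3 genes most correlated with each target, and says where it goes beyond them. Values of some listed genes are not reported here. The closest libraries were wild-type mice 3 and 4 (chi-square per gene 2.69 over 11799 genes, about 1 for sampling noise alone) and were counted separately. Other treatment groups of the study were not analysed here.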

Additional observations from a re-analysis of the deposited data

How the results depend on the processing

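The number of targets that passed for PBS against wild type was 5, and 3 with an absolute log2 fold change over 0.5 required as well or within index series 3, which held 1 wild-type mouse, assumed to vary like the others. It was 4 within index series 1 and within series 2, and ran from 4 to 6 leaving out single mice. For RGLS4326 against PBS it was 0, and ran from 0 to 1 without single mice. With library totals and no scaling factors it was 4 (Bcl2l11, E2f1, Zbtb4 and Stat3, all lower). That scaling moved the median log2 fold change of all genes to −0.12 in this comparison, 0.38 for PBS against wild type and 0.26 for RGLS4326 against wild type. In both comparisons with wild type 6 of 7 targets then passed, 5 higher and 1 lower. The call of Vldlr was lost there (−0.11, or −0.49 relative to the median, and −0.073, or −0.33). In RGLS4326 against PBS, the 4 genes read −0.10, −0.21, −0.053 and −0.20 relative to the median. For RGLS4326 against wild type it was 4, also without any single mouse, and 5, 0 and 1 in index series 1, 2 and 3. Fewer of all genes passed in single series (38.5% for PBS against wild type in series 3, and 47.3%, 2.54% and 18.3% for RGLS4326 against wild type). Series 2 without RGLS4326 mouse 9, chosen after seeing the data, gave 2 targets and 30.9% of all genes. RLE factors, housekeeping scaling, both filters, fits of 2 groups, the covariate and DESeq2 changed none of the 3 counts.

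Some signs turned, mostly for values near 0. The sign of E2f1 for RGLS4326 against PBS turned too, although its value over all mice was not near 0. In index series 1, Rbl1 read −0.020 for PBS against wild type, and Bcl2l11 0.070, E2f1 0.054 and Rbl1 0.10 for RGLS4326 against PBS. Zbtb4 read 0.013 in series 2, and without mouse 9 there Zbtb4 read 0.014 and Rbl1 0.0050. For RGLS4326 against wild type, Bcl2l11 read −0.017 in series 2 and Rbl1 −0.052 in series 3. In the same comparison Zbtb4 was 0.25 with library totals (−0.0070 relative to the median shift of 0.26), 0.0076 with housekeeping scaling, 0.026 with a minimum mean CPM, 0.0067 with 2 groups, 0.0046 with the covariate, 0.027 in series 1 and series 2, 0.021 in series 2 without mouse 9, and −0.021 to 0.028 without single mice.

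With the replicate number as a block the targets passing numbered 5, 0 and 4, Zbtb4 was 0.055 for RGLS4326 against wild type, and genes passing for RGLS4326 against PBS fell from 2402 to 303. Same-numbered mice are different animals, and their deviations did not correlate (mean r −0.085 over 12 PBS and RGLS4326 pairs, 4 of them over 0.1), so the number pairs nothing. The index series, used as a technical batch, stands for library numbers only. Of 28 relations to Lcn2 and Mki67, 10 passed, and 13 by Spearman's rho, 10 with a pseudocount of 0.1, 11 centred on the series, 15 without RGLS4326 mouse 9 and 15 with marker lists in place of single genes. E2f1 had the fewest counts.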
